A study of Mus musculus with 24 samples.

Results

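The step from adenoma to early carcinoma in MMTV-PyMT mammary tumors was followed by comparing small RNA libraries of 3 tumors taken at week 8 with 3 taken at week 10. The members were all libraries whose labels name a PyMT tumor of these ages, 6 of the 24 libraries of the series, and they were compared over every miRNA of the count table. The tumors came from F1 female mice on the FVB strain that were heterozygous for the PyMT transgene, in which the MMTV promoter drives the polyoma middle T antigen in mammary epithelium. The labels give the age, and the study assigns week 8 to adenoma/MIN (mammary intraepithelial neoplasia) and week 10 to early carcinoma. The labels name no treatment. The age-matched controls were normal mammary glands of FVB females without the transgene, 3 at each age. Each library was made from bulk frozen tissue of 1 mouse, and the study's histology notes normal mammary gland cells in the adenoma/MIN tissue. In such tissue, fewer cells of a type and less RNA per cell cannot be told apart. Age and stage changed together, so they cannot be told apart either.

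MicroRNAs are short RNAs cut from hairpin precursors. They guide Argonaute proteins to messenger RNAs mainly through the seed, bases 2 to 8 of the mature strand, and lower the stability and translation of their targets. Many are made from clusters: in the mouse, an intron of the imprinted gene Sfmbt2 holds a large tandem repeat of miRNAs, and the imprinted Dlk1-Dio3 domain holds another large cluster. The miR-200 family maintains the epithelial state, and miR-148a is abundant in mammary epithelium and milk.

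The mature sequences of the miRNAs on which the comparison turned are given from RefSeq (GRCm38.p6), 5′ to 3′, with the seed in capitals. The deposited table counts each miRNA name without separating the 5p and 3p strands, so both strands are shown where RefSeq listed them, except in the set that shares a 3p seed. Of 27 names looked for, 18 had a sequence in the table used. The first set holds the members of the Dlk1-Dio3 cluster with the smallest p.
miR-376b-5p: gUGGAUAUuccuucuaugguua
miR-376b-3p: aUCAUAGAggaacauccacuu
miR-487b-5p: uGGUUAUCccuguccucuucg
miR-382-5p: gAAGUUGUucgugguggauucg
miR-382-3p: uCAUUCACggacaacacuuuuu
miR-300-5p: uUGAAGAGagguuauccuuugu
miR-300-3p: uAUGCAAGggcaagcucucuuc
The miR-376 paralogs are shown because close copies can share short reads, and miR-376c-5p carries the same seed as miR-376b-5p.
miR-376a-5p: gGUAGAUUcuccuucuaugagu
miR-376a-3p: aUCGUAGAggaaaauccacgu
miR-376c-5p: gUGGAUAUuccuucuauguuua
The next set shares the seed AGUGCAA on the 3p strand, and its members lay on opposite sides of 0.
miR-130b-3p: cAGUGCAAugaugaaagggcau
miR-301a-3p: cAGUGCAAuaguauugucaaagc
miR-130a-3p: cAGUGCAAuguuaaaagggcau
The last set holds miR-181c, an abundant miRNA among the 20 named for their small p. It also holds miR-9, which stood out in a single library, and miR-148a, the most counted miRNA. Others that stood out in a single library, such as miR-133b, are not shown.
miR-181c-5p: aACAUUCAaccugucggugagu
miR-181c-3p: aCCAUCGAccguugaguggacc
miR-9-5p: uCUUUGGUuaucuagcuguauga
miR-9-3p: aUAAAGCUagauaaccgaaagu
miR-148a-3p: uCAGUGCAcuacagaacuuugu
miR-148a-5p: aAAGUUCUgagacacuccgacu
The Sfmbt2 miRNAs miR-669c, miR-297a, miR-466a and miR-466b are named only.

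Total counts per library ran from 1032241 to 1959535 at week 8 and from 1081959 to 2002832 at week 10, and 264 to 295 miRNAs had at least 1 count. A count of 3, taken as the detection floor, corresponded to at most 2.91 CPM by total counts alone. CPM is a unit that puts counts of libraries of unequal size on a common scale. The CPM values below also use a scaling factor, which was 0.82 in week 8 library 2 and puts its floor higher. Such floors cover counting error only. Of the 510 names in the table, 184 had no count in any of these 6 libraries. The filter of edgeR over all libraries kept 237 for testing, which held at least 99.99% of the counts of each library. Another 89 had counts but were not tested, and reached at most 18 counts in a library. The libraries were sequenced on 2 lanes, with week 8 libraries 1 and 2 and week 10 library 1 on lane 1 and the others on lane 2.

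A pair of libraries stood apart from the others. Across the 237 tested miRNAs, the median Pearson correlation of log2 CPM with the other 5 libraries was 0.966 for week 10 library 3 and 0.976 for week 8 library 2, and from 0.985 to 0.987 for the rest. These correlations are across miRNAs, which are not independent replicates. Without the skeletal muscle miRNAs the values were 0.987 and 0.979. Libraries of the same week had a median correlation of 0.972 and libraries of different weeks 0.982, so libraries of a week were not closer to each other than to those of the other week. The median SD of log2 CPM over the 3 libraries was 0.33 at week 8 and 0.20 at week 10.

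No miRNA passed the threshold between week 8 and week 10 tumors. In the quasi-likelihood test of edgeR, adjusted after Benjamini and Hochberg, 0 of the 237 tested miRNAs (0%) had an adjusted p under 0.05, and the smallest adjusted p was 0.995. At an unadjusted p under 0.05 there were 9 (3.8%), of which 5 were higher at week 10 (2.11%) and 4 lower (1.69%). A share of 0.05 of these tests is 11.85. DESeq2 likewise gave 0 at an adjusted p under 0.05 and 6 at an unadjusted p under 0.05. Without week 8 library 2 and week 10 library 3, edgeR again gave 0 after adjustment and 12 at an unadjusted p under 0.05. In 11 of the 237 miRNAs (4.64%), the 3 libraries of a week did not overlap with those of the other week.

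The differences were small relative to those between tumor and normal gland. The median size of the log2 fold change was 0.15 from week 8 to week 10, against 0.93 between tumor and normal gland at week 8 and 0.88 at week 10. The same test called 84 miRNAs (35.4%) between tumor and normal gland at week 8 and 143 (60.3%) at week 10. Of the 237 log2 fold changes, 106 (44.7%) were above 0 and 131 (55.3%) below, with a median of -0.02. Scaled by total counts alone, 59.9% were above 0 and the median was 0.05. For 149 miRNAs (62.9%) the 95% interval of the log2 fold change lay within 1 unit of 0. This held for 112 of the 129 miRNAs with a mean of at least 100 CPM and for 37 of the 108 below it.

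**Figure D1:**
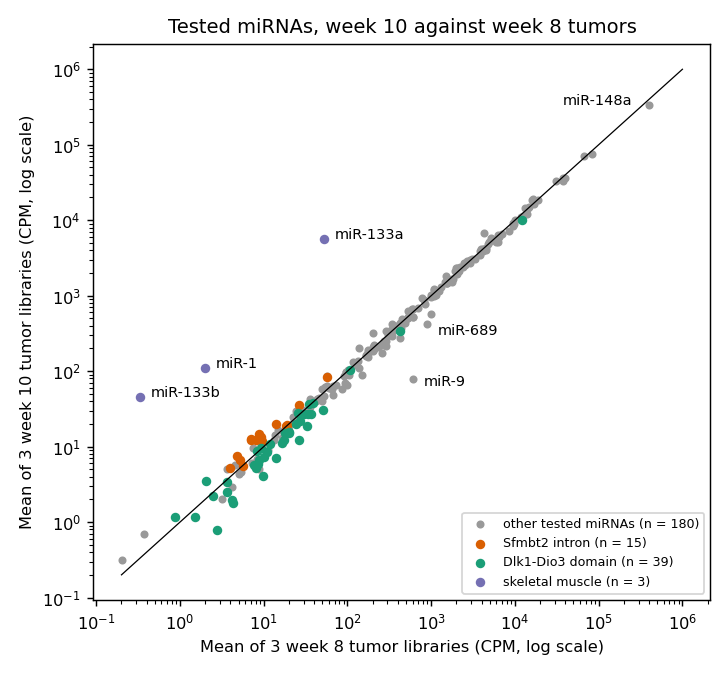
Mean CPM of the 3 week 10 tumor libraries (y axis, log scale) against that of the 3 week 8 tumor libraries (x axis, log scale) for the 237 tested miRNAs, with the line of equal levels. Most points lie along the line, the 15 Sfmbt2 miRNAs lie on or just above it, most Dlk1-Dio3 miRNAs lie below it, and miR-1, miR-133a and miR-133b stand far above it, high in 1 week 10 library.

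The most counted miRNAs had small differences between the weeks, with log2 fold changes from -0.23 to 0.23 for the top 10. These 10 took from 67.6% to 71.7% of the counts of a library. miR-148a alone took from 29.8% to 46.0% at week 8 and from 30.7% to 35.5% at week 10. Its levels were 353927, 558380.0 and 288003 CPM at week 8 and 325704, 301590.0 and 371030.0 CPM at week 10. Week 8 library 2 was the highest and week 8 library 3 the lowest, with all week 10 libraries between them. The log2 fold change was -0.23 ± 0.28 (SE), with a 95% interval from -0.89 to 0.42.

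The 5 members of the miR-200 family had log2 fold changes from -0.02 to 0.08, and 0 of 5 passed the test. On lane 1 none of the 5 was higher at week 10, with a median difference of -0.20. On lane 2 all 5 were, with a median of 0.37. Without week 8 library 2 all 5 were above 0, and without week 8 library 3 none was. The summed levels of the 5 were 22007, 27212 and 15835 CPM at week 8 and 21207, 21020.4 and 23035 CPM at week 10. The normal glands of both weeks lay between 3020 and 5010 CPM, below every tumor library, so the labelled epithelial tumor tissue carried its markers. The most abundant member, miR-200b, had a log2 fold change of 0.06 ± 0.21 (SE), and miR-141 and miR-200a had 0.08 and -0.02. The epithelial and sensory-cell cluster of miR-183, miR-96 and miR-182, listed with miR-203 and miR-205, had 1 of 5 members above 0 and a median of -0.07, but 3 of 5 were above 0 when scaled by total counts alone, with lane in the fit, or without week 8 library 2 and week 10 library 3. miR-182 stood at 34102, 51632 and 32911 CPM at week 8 and 37386, 40304 and 32671 CPM at week 10. Its groups overlapped, and its log2 fold change of -0.07 ± 0.21 (SE) was smaller than its error. miR-183 and miR-96 had log2 fold changes of -0.15 and -0.04.

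The miRNAs of the Sfmbt2 intron leaned toward week 10. The gene spans chr2:10292137-10516880 on the + strand of mm9. Of 31 listed members in the table, 3 had no count in the 6 libraries and 15 were tested. All 15 tested members had a log2 fold change above 0, against 44.7% of all tested miRNAs, with a median of 0.55 and a range from 0.03 to 0.86. None of the 15 passed the adjusted threshold in edgeR's quasi-likelihood test. In that test 2 of the 15 had an unadjusted p under 0.05, against 9 of all 237 tested miRNAs (3.8%). DESeq2 also put all 15 above 0, with a median of 0.54. The members are close copies that can share reads, so they are not 15 separate measurements.

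The summed level of the 15 was 247, 190 and 175 CPM in the week 8 libraries and 289, 271 and 276 CPM in the week 10 libraries. All week 10 libraries were above all week 8 libraries. The order held within lane 1, with 289 CPM against 247 and 190, and within lane 2, with 271 and 276 against 175. By difference in mean log2 CPM, 12 of the 15 members were higher at week 10 on lane 1, with a median of 0.29, and 13 of 15 on lane 2, with a median of 0.79. Of all 237 tested miRNAs, 103 were higher on lane 1 and 112 on lane 2. With 1 library left out in turn, between 13 and 15 members stayed above 0 and the median ran from 0.33, without week 8 library 3, to 0.78, without week 8 library 1. In tumors of the neighbouring stages the sum was 152, 149 and 117 CPM at week 6 and 297, 225 and 334 CPM at week 12, so week 10 and week 12 overlapped and week 6 lay below week 8. Normal glands stayed between 40.8 and 80.4 CPM at weeks 8 and 10, and 9 of the 15 members were above 0 there, with a median of 0.14.

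**Figure D2:**
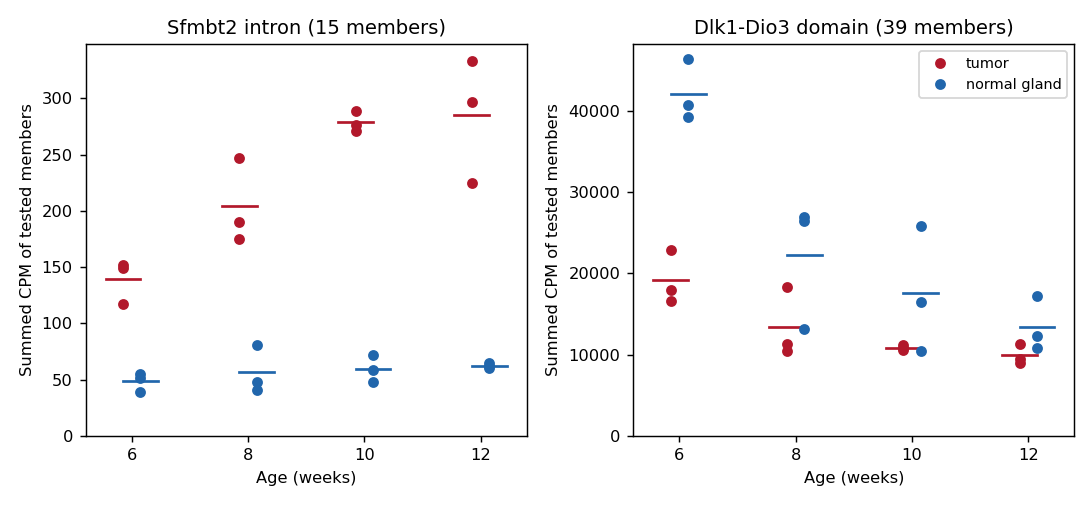
Summed CPM of the tested members (y axis, linear from 0) of the Sfmbt2 intron and of the Dlk1-Dio3 domain by age in weeks (x axis), with a point for each tumor and normal gland library and a bar at each group mean. The Sfmbt2 sum of the 3 week 10 tumors, from 271 to 289 CPM, lies above the 3 week 8 tumors, from 175 to 247 CPM, while the Dlk1-Dio3 sum differs between these weeks through week 8 library 3.

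Among the Sfmbt2 miRNAs, miR-669c (chr2:10430923-10431031, + strand, mm9) had the smallest p of all tested miRNAs. It stood at 6.68, 7.05 and 7.41 CPM at week 8 and 11.9, 11.8 and 14.1 CPM at week 10, from 6 to 25 counts in a library. The groups did not overlap, as for 6 of the 237 tested miRNAs (2.53%) with week 10 above week 8. The log2 fold change was 0.86 ± 0.25 (SE), with an unadjusted p of 0.0115 and an adjusted p of 0.995 by edgeR's quasi-likelihood test. The difference in mean log2 CPM was 0.58 within lane 1 and 0.79 within lane 2.

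miR-297a, which has a further copy elsewhere on chromosome 2, stood at 7.29, 7.05 and 6.92 CPM at week 8 and 9.54, 15.4 and 11.3 CPM at week 10. These groups did not overlap either, and the log2 fold change was 0.77 ± 0.29 (SE). The difference in mean log2 CPM was 0.23 within lane 1 and 0.90 within lane 2. The most abundant member, miR-466b, has 8 copies in the intron and stood at 68.0, 59.95 and 43.5 CPM at week 8 and 87.8, 77.1 and 84.7 CPM at week 10. Every week 10 library exceeded every week 8 library, with a log2 fold change of 0.57 ± 0.24 (SE) and an unadjusted p of 0.0512 by edgeR. miR-466a overlapped between the weeks, at 10.9, 5.88 and 9.39 CPM and 16.2, 17.2 and 10.6 CPM.

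The miRNAs of the Dlk1-Dio3 domain leaned the other way, and the lean rested on 1 library. The domain spans chr12:110691033-111519307 in mm9. Of 54 members in the table, 9 had no count in the 6 libraries and 39 were tested. Of these, 33 were below 0 and 6 above, against 55.3% below 0 among all tested miRNAs, with a median of -0.35. None passed the adjusted threshold of edgeR's test and 3 of 39 had an unadjusted p under 0.05, against 9 of all 237 tested (3.8%). The summed level of the 39 was 10422, 11322 and 18283 CPM at week 8 and 10824, 10543 and 11184 CPM at week 10. Week 8 library 3 was far above the other 5, which overlapped. Without it, 20 members were above 0 and 19 below, with a median of 0.03. It was also the only week 8 library on lane 2, where 37 of 39 members were lower at week 10, against 24 of 39 on lane 1. Of all 237 tested miRNAs, 125 were lower on lane 2 and 134 on lane 1. The part of the lane was not tested apart from week 8 library 3. In normal glands 35 of the 39 members were below 0 over the same weeks, with a median of -0.31.

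miR-127, the most abundant member, took from 91.4% to 92.3% of the sum, with 9621, 10359 and 16713 CPM at week 8 and 9922, 9699.7 and 10219 CPM at week 10. Its log2 fold change was -0.26 ± 0.22 (SE). miR-376b (chr12:110961666-110961751, + strand, mm9) stood at 4.86, 9.40 and 15.3 CPM at week 8 and 3.34, 5.44 and 3.53 CPM at week 10. Week 8 library 1 fell among the week 10 libraries, so the groups overlapped, and the log2 fold change was -1.27 ± 0.49 (SE), with an unadjusted p of 0.035 by edgeR. Its paralogs, named for their sequence after their values were seen, gave -1.05 for miR-376a and -0.30 for miR-376c.

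miR-487b (chr12:110965543-110965624, + strand, mm9) had 5, 2 and 6 counts at week 8 and 3, 1 and 0 at week 10. miR-382 (chr12:110971979-110972058, + strand, mm9) had 5, 3 and 13 counts at week 8 and 5, 1 and 3 at week 10. After scaling, neither overlapped between the weeks, but every value rested on at most 13 counts. Their log2 fold changes were -1.62 ± 0.68 (SE) and -1.17 ± 0.49 (SE), each with an unadjusted p of 0.0486 by edgeR. miR-300, miR-134 and miR-409 had -0.98, -0.77 and -0.71, and all of them overlapped between the weeks.

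Among miRNAs outside these clusters, miR-689 had the smallest p. It stood at 637, 1069 and 939 CPM at week 8 and 522, 485 and 267 CPM at week 10, or 881 ± 221 CPM (SD, n = 3) against 425 ± 138 CPM (SD, n = 3). The groups did not overlap, as for 5 of the 237 (2.11%) with week 8 above week 10. The log2 fold change was -1.02 ± 0.31 (SE), with an unadjusted p of 0.013 by edgeR. The difference in mean log2 CPM was -0.66 within lane 1 and -1.38 within lane 2. In normal glands the value was -0.31 over the same weeks. miR-2133 stood at 1056, 1100.3 and 786 CPM at week 8 and 854, 415 and 452 CPM at week 10, with an overlap and a log2 fold change of -0.74 ± 0.32 (SE). Neither name was matched to the mm9 annotation, so no position is given. miR-1948, an intronic miRNA of Ttc39c, stood at 7.90, 9.40 and 9.39 CPM and 5.25, 2.72 and 7.06 CPM. Its groups did not overlap, and the log2 fold change was -0.75 ± 0.37 (SE).

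miR-130b and miR-301a carry the same 3p seed, shown above. miR-130b stood at 103, 233 and 109.7 CPM at week 8 and 70.1, 97.1 and 96.7 CPM at week 10, without overlap, and had a log2 fold change of -0.72 ± 0.36 (SE). Week 8 library 2 stood far above the rest. miR-301a stood at 498, 510.2 and 586 CPM at week 8 and 677, 648 and 549.8 CPM at week 10, with an overlap and a log2 fold change of 0.27 ± 0.16 (SE). Whether the members differed from each other was not tested.

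miR-181c stood at 1466, 1435 and 1597 CPM at week 8 and 1948, 2027 and 1566 CPM at week 10. Only week 10 library 3 fell within the range of week 8, and the log2 fold change was 0.33 ± 0.15 (SE), with an interval from -0.02 to 0.69. Its relative miR-181a had 0.05. miR-497, of the miR-15/16 family that restrains the cell cycle, stood at 347, 263 and 402 CPM at week 8 and 414, 453 and 411 CPM at week 10. Its groups did not overlap, with a log2 fold change of 0.37 ± 0.20 (SE), while miR-16 had 0.01.

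**Figure D3:**
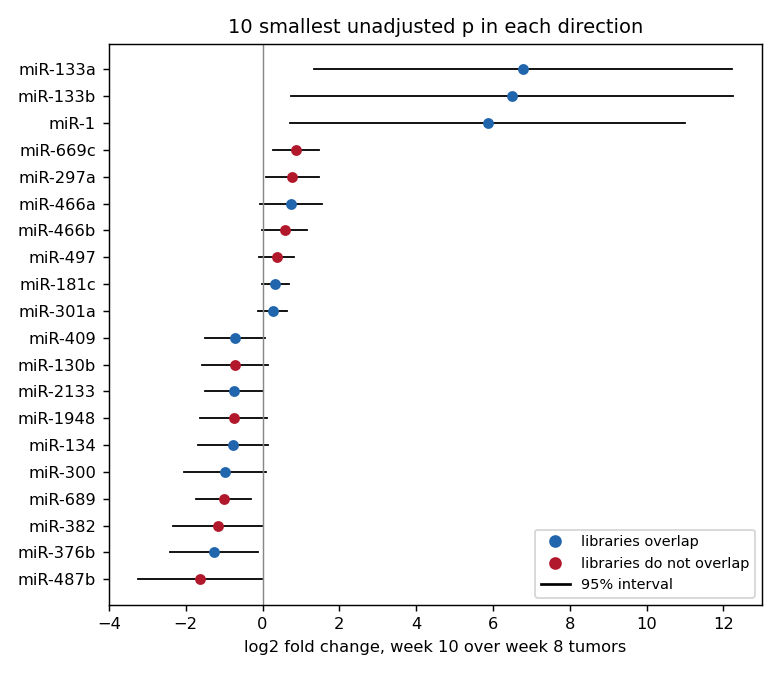
Log2 fold change of week 10 over week 8 tumors (x axis) with its 95% interval for the 10 miRNAs with the smallest unadjusted p in each direction (y axis), with those whose 3 and 3 libraries do not overlap in red. The intervals of miR-1, miR-133a and miR-133b span over 10 log2 units and lie above 0. Also on 1 side of 0 are those of miR-669c, miR-297a, miR-689, miR-376b, miR-487b and miR-382.

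The largest fold changes came from single libraries. The skeletal muscle miRNAs miR-1, miR-133a and miR-133b, which act in muscle development, were high only in week 10 library 3 among the 6. miR-133a stood at 63.8, 50.5 and 41.5 CPM at week 8 and 112, 37.2 and 16836 CPM at week 10. miR-1 had 6, 2 and 0 counts at week 8 and 9, 2 and 462 at week 10. miR-133b had 0, 0 and 2 counts at week 8 and 1, 1 and 191 at week 10. In each, week 10 libraries 1 and 2 were within or close to the range of week 8. The fitted log2 fold change of miR-133a was 6.79 ± 2.30 (SE), with an unadjusted p of 0.0215 by edgeR. The difference in mean log2 CPM was 0.95 within lane 1 and 4.25 within lane 2. Over the 6 listed muscle miRNAs the sum ran from 42.5 to 67.4 CPM at week 8 and was 117, 40.8 and 17298 CPM at week 10. miR-208b was at 0 in all 6, and miR-206 and miR-499 had at most 2 counts. The normal glands of week 10 held 161, 90.5 and 45431 CPM, again high in library 3. With these miRNAs removed from the table, 0 of 234 miRNAs had an adjusted p under 0.05 by edgeR and 7 had an unadjusted p under 0.05.

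miR-9, a miRNA known for roles in neural development and in metastasis, stood at 26.7, 1776 and 9.88 CPM at week 8 and 83.5, 124 and 29.6 CPM at week 10. Week 8 library 2 was far above the other 5, and the week 10 libraries were all above the other week 8 libraries. The log2 fold change was -2.89 ± 1.74 (SE), and 2.09 without that library. Tumors of week 12 ranged from 106 to 3218 CPM and those of week 6 from 15.3 to 61.6 CPM. miR-196b, from the Hoxa cluster, stood at 103, 4.70 and 147 CPM at week 8 and 88.7, 76.2 and 9.88 CPM at week 10. Week 8 library 2 and week 10 library 3 were both low, 1 library of each stage. miR-196a, named after its values were seen, was low in the same libraries, at 2.35 and 2.12 CPM against 83.5 to 166 CPM in the others. The 5 Hox cluster miRNAs were all below 0, with a median of -0.18, and the abundant miR-10a and miR-10b had -0.16 ± 0.35 (SE) and -0.01 ± 0.35 (SE). Scaled by total counts alone, 1 of the 5 was above 0, and without week 8 library 1 or without week 8 library 3, 3 of the 5 were. On lane 1, 4 of the 5 were higher at week 10 and on lane 2 none was.

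**Figure D4:**
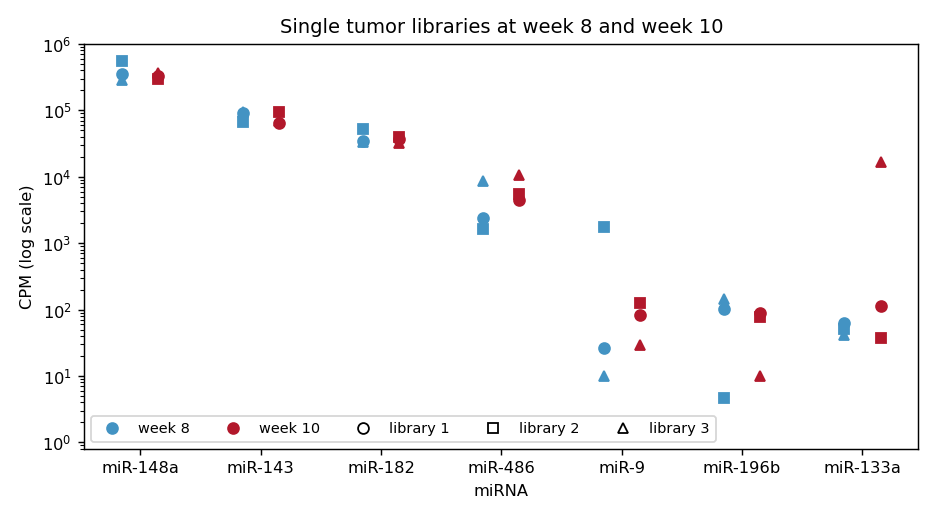
CPM (y axis, log scale) of 7 miRNAs (x axis) in each tumor library, week 8 in blue and week 10 in red, with a symbol for each library number. miR-148a, miR-143 and miR-182 are close in all 6 libraries, while miR-9 at week 8, miR-133a at week 10 and miR-196b in both weeks have 1 library far from the others.

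No marker of blood, stroma, endothelium or adipocytes passed the threshold. The erythroid miRNAs miR-144, miR-451 and miR-486 were all above 0, with a median of 0.61. Their sums were 2979, 2059.6 and 11285 CPM at week 8 and 5522, 6883 and 12385 CPM at week 10, with week 8 library 3 within the range of week 10. miR-486 stood at 2423, 1626 and 8651 CPM and 4427, 5439.9 and 10656 CPM, with a log2 fold change of 0.73 ± 0.65 (SE). Within lane 1 all 3 were higher at week 10 and within lane 2 all 3 were lower. Without week 8 library 2 and week 10 library 3, all 3 were below 0, with a median of -0.19. The 3 fibroblast miRNAs had log2 fold changes of at most 0.01 in size, and miR-199a stood at 0.01 ± 0.23 (SE). On lane 1 these 3 were all higher at week 10, with a median difference of 0.30, and on lane 2 all lower, with -0.33. Without week 8 library 1 all 3 were above 0, and without week 8 library 2 none was. The endothelial miR-126 had -0.06 ± 0.30 (SE), with 15107, 6568 and 13408 CPM at week 8 and 10072, 11294 and 11603 CPM at week 10. miR-143, of smooth muscle and myoepithelial cells, had -0.11 ± 0.22 (SE), and miR-378, linked to adipocytes, -0.12 ± 0.38 (SE).

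Of the 4 tested leukocyte miRNAs, 1 was above 0 and 3 below, and scaled by total counts alone 2 were on each side. miR-142, found in most blood cells, stood at 1425, 1652 and 1535 CPM at week 8 and 1489, 1362 and 1517 CPM at week 10, with a log2 fold change of -0.05 ± 0.13 (SE). miR-150, of mature lymphocytes, stood at 362, 147 and 260.3 CPM and 141, 203 and 176 CPM, with -0.54 ± 0.35 (SE). The groups overlapped in both.

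Families known from proliferation and tumor growth showed no member past the threshold. Of the 9 tested miRNAs of the oncogenic miR-17~92 cluster and its paralogs, 7 were above 0, with a median of 0.09. The most abundant, miR-92a, stood at 65140.4, 66695 and 68739 CPM at week 8 and 65544, 78297 and 65852 CPM at week 10, with 0.09 ± 0.15 (SE). miR-19b had 0.16 and miR-17 -0.00 ± 0.19 (SE). Without week 10 library 1, 4 of the 9 were above 0. On lane 1, 8 of the 9 were higher at week 10 and on lane 2, 2 were. miR-21, a miRNA raised in many carcinomas, had 0.03 ± 0.17 (SE), with 17797, 16229 and 22134 CPM and 21209, 17139 and 17791 CPM. miR-146b and miR-210, a hypoxia-induced miRNA, had 0.10 and 0.03. miR-31, miR-92b and miR-27b had 0.04 ± 0.30 (SE), -0.10 ± 0.29 (SE) and -0.02 ± 0.29 (SE), all smaller than their errors.

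No member of the families known as tumor-suppressive passed the threshold. Of 8 tested let-7 miRNAs, 2 were above 0, with a median of -0.04, but scaled by total counts alone 5 were, and without week 10 library 1, 4 were. On lane 1 none of the 8 was higher at week 10 and on lane 2, 5 were. let-7c had 0.16 ± 0.13 (SE). Of 5 miR-30 miRNAs 4 were above 0, with a median of 0.20. Without week 8 library 3, 2 of the 5 were above 0, with a median of -0.01, and without week 10 library 3, 3 of the 5 were, with a median of 0.0066. On lane 1, 1 of the 5 was higher at week 10 and on lane 2 all 5 were. miR-30d and miR-30e had 0.23 ± 0.17 (SE) and 0.24 ± 0.15 (SE), and miR-26a, which restrains growth, 0.23 ± 0.18 (SE). The p53-linked miR-34a and miR-34c had 0.04 and -0.27. The matrix-linked miR-29a and miR-29c had 0.04 and 0.15. All 5 members of the miR-99/100 and miR-125 group were below 0, with a median of -0.07, but scaled by total counts alone 3 of the 5 were above 0, and with lane in the fit 2 were. Of these, miR-125b and miR-99b had -0.09 and -0.14. From other lists, not grouped here by a role in tumors, miR-23a had -0.16, miR-342 -0.19 and miR-132 0.32.

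**Figure D5:**
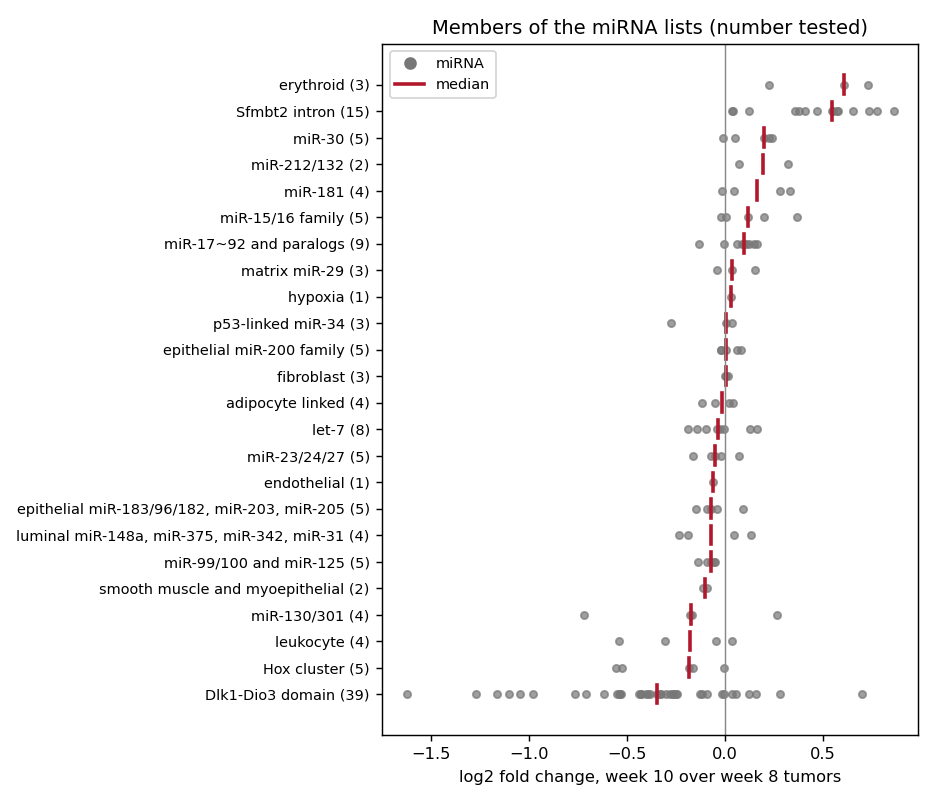
Log2 fold change of week 10 over week 8 tumors (x axis) for the tested members of each miRNA list except skeletal muscle (y axis, number tested in brackets), with the list's median as a red bar. The medians lie within 0.20 of 0 except for the 3 erythroid miRNAs with 0.61, the 15 Sfmbt2 miRNAs with 0.55 and the Dlk1-Dio3 miRNAs with -0.35. The 3 erythroid miRNAs and the 15 Sfmbt2 miRNAs all lie above 0, the erythroid ones not within lane 2.

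The same step in normal glands served as the background for age. There 0 of 237 miRNAs (0%) had an adjusted p under 0.05 by edgeR's quasi-likelihood test, 5 had an unadjusted p under 0.05, all higher at week 10 (2.11%), and DESeq2 gave 0 and 7. Of those 5, miR-1, miR-133a and miR-133b were high in library 3 of week 10. The 95% interval of the tumor change minus the normal gland change reached a median of 0.95 log2 units to either side. In the test of that difference, 0 of 237 (0%) had an adjusted p under 0.05 and the smallest adjusted p was 0.994, while DESeq2 gave 0 after adjustment and 1 at an unadjusted p under 0.05. At an unadjusted p under 0.05 edgeR gave 2 (0.844%), miR-669c with a difference of 0.94 ± 0.42 (SE) and miR-665, named after its values were seen, with 2.10 ± 0.88 (SE). miR-669c had log2 fold changes of 0.86 in tumors and -0.09 in normal glands. Its normal gland levels ran from 2.85 to 6.47 CPM over the 6 libraries, below every tumor library of these weeks. miR-665 had at most 3.63 CPM in the tumors, close to the detection floor. Its mean in normal glands was 7.07 CPM at week 8 and 2.47 CPM at week 10, with a log2 fold change of -1.41 there.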

How the data were processed

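Small RNA of 24 libraries, 3 tumors and 3 normal glands at each of 4 ages, was sequenced as single-end reads. The authors removed barcode and adaptor, aligned reads of mature miRNA length with Bowtie, and deposited raw counts of reads overlapping each miRBase miRNA, without normalization. The text of the study names mm10 and the deposited labels mm9. Strands and copies of a name are pooled. Groups, ages and lanes came from the labels.

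Week 8 and week 10 tumors were compared with edgeR 4.0.16 in R 4.3.3 (filterByExpr over all libraries, TMM, quasi-likelihood test, Benjamini-Hochberg adjustment, threshold 0.05). The normal glands and the difference between both changes were tested likewise. CPM values use TMM over all libraries, with a prior count of 2 where logged. SEs were derived from the F statistic of each test. With 3 libraries per group, from separate mice, each p-value sets a difference against the spread between these libraries. That spread was moderated over all tested miRNAs. Alternatives were other scalings, filters, DESeq2 1.42.0, a lane covariate, the replicate block, thinning and left-out libraries. Leaving out a pair of libraries and removing muscle miRNAs were chosen after seeing the data. Named miRNAs are the 10 with the smallest p in each direction, the 10 most counted, the most abundant and the smallest-p member of each list, those the study discusses and any past a threshold. The members, lists and this rule were chosen with earlier results of these data known. The mm9 annotation gave positions for 441 of 510 names. The test was checked on simulated counts. Plots used Python 3.11.15 with matplotlib 3.10.9.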

Additional observations from a re-analysis of the deposited data

How the results depend on the processing

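The count of miRNAs past the adjusted threshold stayed at 0 in tumors, in normal glands and in the difference between them under every alternative run except the replicate block in tumors, which gave 1, miR-133b. That miRNA had 0, 0 and 2 counts at week 8 and 191 counts in week 10 library 3 alone. The cause was not tested. The correlations of same-numbered deviations were 0.058, -0.04 and -0.17, and not every library correlated best with its own number. With 3 libraries per week, these values cannot decide whether the replicate numbers pair the tumors. The block gave 0 in the other comparisons. Leaving out each replicate gave 0 calls throughout, with 4 to 13 miRNAs at an unadjusted p under 0.05 in tumors, 0 to 11 in normal glands and 0 to 5 for the difference. Of 63 named miRNAs, 34 kept the sign of the tumor log2 fold change in every alternative and left-out run that tested them. Among them were miR-669c, miR-297a, miR-466b, miR-689 and miR-376b. miR-1, miR-133a and miR-133b, high in week 10 library 3 alone, kept it as well. All of these were named for a small p in the same libraries. That choice favors a kept sign, which is therefore no separate support. The filter of at least 10 counts in every library dropped miR-669c, miR-297a, miR-376b, miR-1 and miR-133b, so it did not test them. Scaling by total counts moved the share above 0 in tumors from 44.7% to 59.9%, in normal glands from 44.7% to 33.8%, and for the difference from 45.1% to 66.7%. The filter over the libraries fitted gave 33.2% above 0 in tumors. Intervals were wider for the rare miRNAs: the 95% interval reached a median of 0.86 log2 units to either side below 100 CPM and 0.48 above it. The parts of depth and of the spread between tumors in this were not tested.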
